A study of Mus musculus with 8 samples.

Results

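The 10 genes described here encode the enzymes and core subunits that add or remove acetyl and methyl groups on lysine 27 of histone H3 (H3K27). They were taken from the deposited table by name, and all 10 of the 10 names were found among its 50600 genes. They are the acetyltransferases Ep300 and Crebbp, the deacetylases Hdac1, Hdac2 and Hdac3, the demethylases Kdm6a and Kdm6b, and the core of Polycomb repressive complex 2 (PRC2), Ezh2, Eed and Suz12. The RNA came from JUN-TetON mouse embryonic stem cells (mESCs), in which doxycycline (Dox) switches on a JUN transgene and the cells leave the pluripotent state. There were 4 groups of 2 libraries, 8 in all, given the solvent DMSO, PFI-3 alone, BI-9564 alone or the 2 together (P+B). PFI-3 is an inhibitor of the bromodomain of BRG1 and BI-9564 of those of BRD7 and BRD9; a bromodomain is the part of a protein that binds acetylated lysine, and all of these proteins are subunits of BAF chromatin remodelling complexes.

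Every library, the DMSO libraries included, carried the c-Jun_TetOn genotype and the OG2 transgene on a mixed 129SVJ, C57B6 and CBA background. All were at passage 12, were grown without feeders in serum medium with LIF and the inhibitors PD0325901 and Chir99021, and were given 2 µg/ml Dox. The labels give 6 h of treatment and no compound dose. The study's legend for this RNA-seq describes a longer Dox induction with 6 h of compound treatment. This matches the labels if their 6 h refers to the compounds. The study's compound doses are not used here. No library without Dox was analysed here, so each comparison is between compounds in JUN-induced cells and none shows the effect of JUN. The labels do not say whether replicates were separate cultures, so p-values measure only the spread between these samples, which may be technical. Values were TPM, transcript abundances scaled to transcript length and to a fixed total per library, and were deposited as whole numbers. They measure RNA, not protein, enzyme activity or the marks themselves, and in bulk RNA fewer cells of a type and less RNA per cell cannot be told apart. All 10 of the mESC markers in a fixed list were detected, at 25 to 2930 TPM, while the 7 fibroblast markers summed to 0 to 5 TPM in each library and 4 of them were at 0 throughout.

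Acetylation of H3K27 marks active enhancers and promoters, and trimethylation of the same residue marks genes held silent by Polycomb. A lysine cannot carry both at once, so the marks exclude each other on a histone tail. EP300 and CREBBP add the acetyl group and class I HDACs remove it, as the catalytic subunits of larger repressor complexes; EZH2 adds methyl groups within PRC2 and KDM6A and KDM6B take them off. BAF subunits read acetylated lysines through their bromodomains, and in mESCs PRC2 keeps many developmental genes silent.

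None of the 10 genes was called with any treatment. In the P+B to DMSO comparison 0 of 10 were called by limma (adjusted p under 0.05 with a change of 1.5-fold or more), where 4% of the 10222 genes tested were. With BI-9564 alone 0 of 10 were called beside a background of 0.108%, and with PFI-3 alone 0 of 10 beside 0%. All 10 members passed the filter on low values, a mean of at least 5 TPM. At an unadjusted p under 0.05 the count was also 0 of 10 in each of these comparisons, where 22.6% of all genes tested reached that level with P+B, 14.9% with BI-9564 and 6.79% with PFI-3. With the replicate number as a block, an unadjusted p under 0.05 was reached by 2 of 10 with P+B (Suz12, 0.00648, and Ezh2, 0.0258; background 29.2%), 1 of 10 with PFI-3 (Suz12, 0.0245; background 11.2%) and 0 of 10 with BI-9564 (background 21.3%). By adjusted p and fold with the block, again 0 of 10 were called in each, beside 7.02% with P+B, 1.53% with BI-9564 and 0% with PFI-3. The adjusted p-values of the members ran from 0.299 to 0.980 with P+B, from 0.511 to 0.952 with BI-9564 and from 0.905 to 1 with PFI-3.

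**Figure D1:**
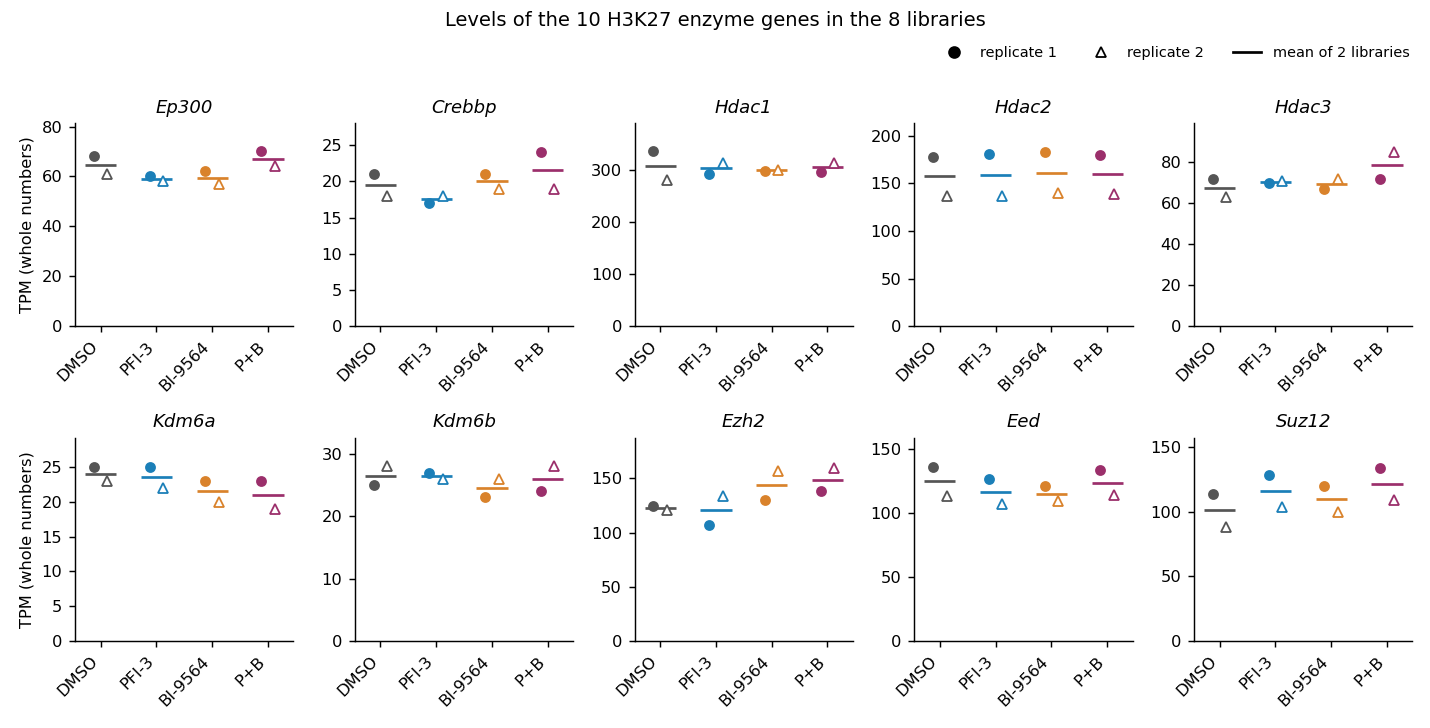
Level of each of the 10 genes in each of the 8 libraries, in TPM on axes that start at 0, by treatment; filled circles are replicate 1, open triangles replicate 2 and lines the means of 2 libraries. The treated groups overlap DMSO except for Ezh2 (BI-9564 and P+B) and Ep300 (PFI-3). Replicate 1 of Hdac2 lies at 178 to 183 TPM and replicate 2 at 137 to 140 in all 4 treatments.

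The levels spanned a wide range. Over the 8 libraries Hdac1 was the most abundant, with a mean of 303 TPM, and Crebbp the least, with 19.6. Hdac2 had a mean of 159 TPM, followed by Ezh2 at 134, Eed at 120 and Suz12 at 112. Then came Hdac3 at 71.5 TPM and Ep300 at 62.5, and the demethylases Kdm6b at 25.9 and Kdm6a at 22.5. Hdac1 lay above Hdac2 in every library without overlap. The neighbours from Hdac2 to Suz12 overlapped one another, as did Hdac3 with Ep300, and Kdm6b with Kdm6a and Crebbp. The lowest Suz12 value, 88 TPM, was above the highest Hdac3 value, 85, and the lowest Ep300 value, 57, was above the highest Kdm6b value, 28. The members therefore fell into 4 tiers that held in all libraries: Hdac1, then Hdac2 with the PRC2 core, then Hdac3 with Ep300, then the demethylases with Crebbp.

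Of the pair of acetyltransferases, which are close relatives with largely shared substrates, Ep300 gave 68 and 61 TPM in the DMSO libraries, 60 and 58 in those given PFI-3, 62 and 57 under BI-9564 and 70 and 64 under P+B (replicates 1 and 2). Both PFI-3 libraries lay just below both DMSO libraries, and the P+B and BI-9564 libraries overlapped DMSO. Both P+B libraries lay above those of either compound alone. The log2 difference from DMSO was 0.05 with P+B (95% interval -0.20 to 0.31). Crebbp gave 21 and 18 TPM in the DMSO libraries, 17 and 18 in those given PFI-3, 21 and 19 under BI-9564 and 24 and 19 under P+B. Every treated group overlapped DMSO, while both PFI-3 libraries lay below those of BI-9564 and P+B. At this level a step of 1 TPM, the finest the whole numbers resolve, is 5.1% of the mean. With P+B the log2 difference was 0.13 (-0.27 to 0.53). Ep300 was 2.92 to 3.53 times as high as Crebbp in each library. Ep300 lies on chromosome 15 (81585351 to 81652077, plus strand, mm10) and Crebbp on chromosome 16 (4081328 to 4213997, minus strand).

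The 3 deacetylases are the catalytic subunits of the NuRD, Sin3 and CoREST complexes (HDAC1 and HDAC2) and of the NCoR complex (HDAC3). Hdac1 gave 335 and 280 TPM in the DMSO libraries, 292 and 313 in those given PFI-3, 298 and 299 under BI-9564 and 296 and 313 under P+B. The DMSO libraries were the highest and the lowest of all 8, so every treatment lay within their range. The log2 difference with P+B was -0.01 (-0.23 to 0.21). The level of Hdac1 is uncertain, since 35.3% of the 50-base windows of its transcripts also occur in other genes. The processed pseudogene Gm10093 on chromosome 17 holds 31.7% of them and had 22 to 33 TPM; how reads were split between them is not given in the sources used here. For the other 9 members such shared windows made up at most 0.53%.

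Hdac2 gave 178 and 137 TPM in the DMSO libraries, 181 and 137 in those given PFI-3, 183 and 140 under BI-9564 and 180 and 139 under P+B. Within a replicate number the 4 treatments differed by at most 5 TPM, and the gap lay between the replicate numbers instead. The log2 difference with P+B was 0.02 (-0.45 to 0.48), an interval that carries this gap; with the replicate number as a block it was -0.13 to 0.16. Hdac3 gave 72 and 63 TPM in the DMSO libraries, 70 and 71 in those given PFI-3, 67 and 72 under BI-9564 and 72 and 85 under P+B. Its highest library was P+B replicate 2, while P+B replicate 1 equalled DMSO replicate 1, so the groups overlapped at their edge. P+B gave a log2 difference of 0.21 (-0.06 to 0.49). Hdac1 lies on chromosome 4 (129516104 to 129542713, minus strand) and Hdac2 on chromosome 10 (36974544 to 37001889, plus strand); Hdac3 lies on chromosome 18.

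The demethylases remove methyl groups from H3K27, KDM6A (UTX) as a subunit of the MLL3/4 enhancer complexes and KDM6B (JMJD3) as a gene known to be induced by many stimuli. Kdm6a gave 25 and 23 TPM in the DMSO libraries, 25 and 22 in those given PFI-3, 23 and 20 under BI-9564 and 23 and 19 under P+B. In each treatment replicate 2 was the lower library. For P+B its log2 difference was -0.19 (-0.56 to 0.18). Kdm6b gave 25 and 28 TPM in the DMSO libraries, 27 and 26 in those given PFI-3, 23 and 26 under BI-9564 and 24 and 28 under P+B, with overlap everywhere. Its log2 difference with P+B was -0.03 (-0.37 to 0.31). The antisense gene Kdm6bos overlaps Kdm6b and had 0 to 1 TPM; whether reads were counted by strand is not given in the sources used here. Kdm6a lies on chromosome X (18162575 to 18279936, plus strand) and Kdm6b on chromosome 11 (69398508 to 69413675, minus strand).

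Of the PRC2 core, Ezh2 and Suz12 gave the widest differences from DMSO with P+B among the 10 genes, and Eed one of the smallest. Ezh2, the methyltransferase, gave 125 and 121 TPM in the DMSO libraries, 107 and 134 in those given PFI-3, 130 and 157 under BI-9564 and 138 and 160 under P+B. Both BI-9564 libraries and both P+B libraries lay above both DMSO libraries, and the PFI-3 libraries lay on either side of them. With P+B the log2 difference was 0.27 (-0.05 to 0.59), a fold of 1.21 with an adjusted p of 0.299. With the replicate block the P+B interval was 0.04 to 0.50 (adjusted p 0.117), and leaving out 1 library moved the difference between 0.16 (without P+B replicate 2) and 0.38 (without P+B replicate 1). With BI-9564 alone the log2 difference was 0.21 (-0.11 to 0.54). Ezh2 lies on chromosome 6 (47530139 to 47595341, minus strand).

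Eed, which binds the trimethyl mark, gave 136 and 113 TPM in the DMSO libraries, 126 and 107 in those given PFI-3, 121 and 109 under BI-9564 and 133 and 114 under P+B. As for Hdac2, the split ran between replicate numbers, 121 to 136 TPM against 107 to 114. P+B gave a log2 difference of -0.01 (-0.32 to 0.30). Suz12, the scaffold on which the complex assembles, gave 114 and 88 TPM in the DMSO libraries, 128 and 104 in those given PFI-3, 120 and 100 under BI-9564 and 134 and 109 under P+B. Each treated library lay above the DMSO library of the same replicate number, yet the groups overlapped because replicate 2 was lower throughout. The log2 difference with P+B was 0.27 (-0.13 to 0.66), a fold of 1.20 with an adjusted p of 0.399, and with the replicate block the interval was 0.10 to 0.44 and the adjusted p 0.0532. Leaving out 1 library moved it between 0.084 (without DMSO replicate 2) and 0.45 (without DMSO replicate 1). With PFI-3 the log2 difference was 0.20, with an interval of 0.03 to 0.37 under the block (adjusted p 0.354). Eed lies on chromosome 7 (89954654 to 89980983, minus strand) and Suz12 on chromosome 11 (79993106 to 80034123, plus strand).

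How large a change the data leave room for can be read from the intervals. With P+B the 95% interval lay within a 1.5-fold change in either direction for 8 of the 10 genes, and Ezh2 and Suz12 were the exceptions, with upper ends of 1.51-fold and 1.58-fold. The share among all genes tested was 40.1%. With PFI-3 it was 9 of 10, with Suz12 as the exception, beside 51.4%, and with BI-9564 it was 10 of 10 beside 45.1%. With the replicate block all 10 lay within that range in each of the 3 comparisons, beside 46.7% (P+B), 58.1% (PFI-3) and 52% (BI-9564). The median absolute log2 difference of the 10 genes was 0.092 with P+B, where that of all genes tested was 0.218. It was 0.052 beside 0.132 with PFI-3 and 0.109 beside 0.181 with BI-9564. These backgrounds were not matched for level and include genes down to a mean of 5 TPM, where 1 TPM is a larger step. By mean level Crebbp (35.5), Kdm6a (40.05) and Kdm6b (44.88) were the lowest members in percentiles of genes tested, and the rest lay at 73.09 or above. The values therefore do not show the members to be steadier than genes of like level. Without regard to size, 6 of 10 were higher and 4 lower than DMSO with P+B, with a median of 0.037 beside 0.063 over all genes.

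**Figure D2:**
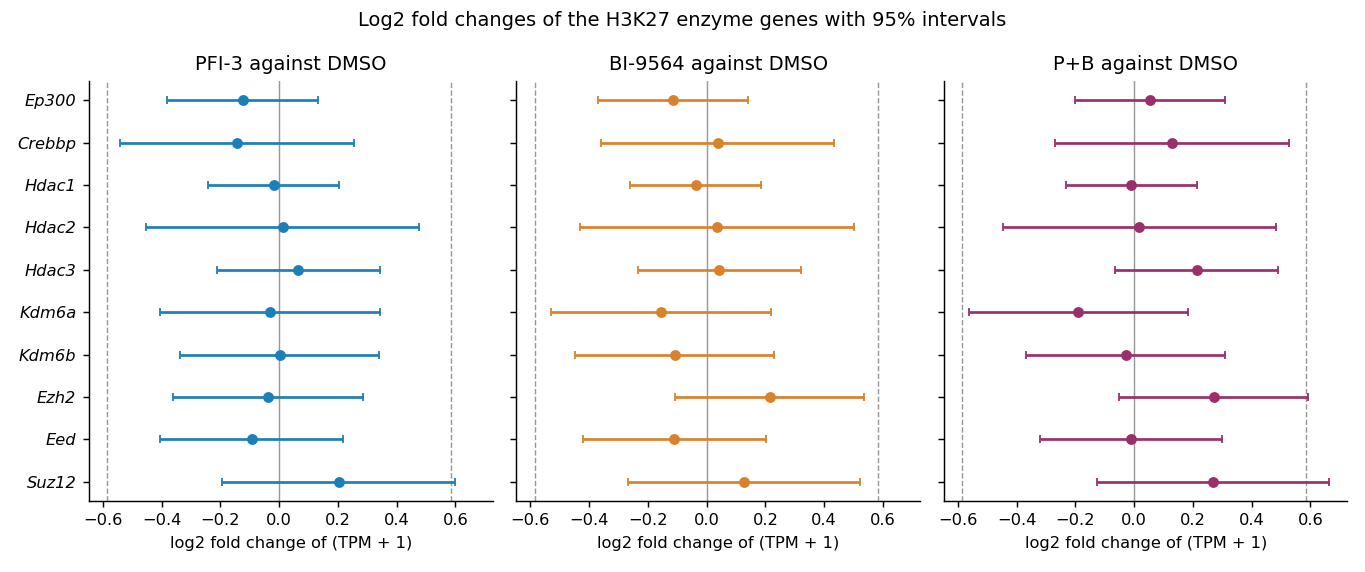
Log2 difference from DMSO of each of the 10 genes with PFI-3, BI-9564 and P+B; points are limma estimates on log2(TPM + 1), bars are 95% intervals and dashed lines mark a 1.5-fold change. Every interval in this fit, which has no replicate block, crosses 0, and those of Ezh2 and Suz12 with P+B and of Suz12 with PFI-3 reach past the upper dashed line.

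The 2 libraries of a group did not overlap those of DMSO, in either direction, for 1 of 10 genes with P+B (Ezh2, higher), where this held for 47.5% of all genes tested. With BI-9564 it was again 1 of 10 (Ezh2, higher) beside 41.2%, and with PFI-3 it was 1 of 10 (Ep300, lower) beside 29.3%. An exact two-sided permutation test of 2 libraries against 2 cannot give a p below 0.333.

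Set directly against each other, the compounds gave no called difference in these genes either. PFI-3 and BI-9564 differ in the bromodomains they bind, and the BI-9564 to PFI-3 comparison gave log2 differences from -0.12 to 0.25, with 0 of 10 called beside 0.108%. P+B against PFI-3 gave 0 of 10 beside 1.31%, and the widest difference was again that of Ezh2, 0.31 with an adjusted p of 0.321. P+B against BI-9564 gave -0.04 to 0.17 and 0 of 10 beside 0.196%. The test of whether the P+B effect departed from adding up the single effects gave values from -0.06 to 0.29 on the log2 scale, with adjusted p-values of 1 for all 10, and called 0% of all genes tested. The intervals were wide, for Ep300 from -0.07 to 0.65, so a departure from the sum was not detectable here rather than absent. With the replicate block the Ep300 interval was 0.008 to 0.58 (adjusted p 0.843). For Ezh2 the blocked interval was 0.08 to 0.54 for P+B against PFI-3 (adjusted p 0.116). For BI-9564 against PFI-3 it was 0.02 to 0.48 (adjusted p 0.207). The comparisons share libraries and are not independent.

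For Hdac2, Eed and Suz12 the difference between the replicate numbers was larger than any difference from DMSO. In a fit of treatment and replicate number together, chosen after the values were seen, Hdac2 was lower in replicate 2 by 23.3% (log2 difference -0.38, interval -0.48 to -0.28, adjusted p 0.00566). Suz12 was lower by 19.1% (log2 difference -0.31, adjusted p 0.0210), with 114 to 134 TPM in replicate 1 and 88 to 109 in replicate 2. Eed was lower by 14.0% with an adjusted p of 0.0633. Ezh2 leaned the other way, with a log2 difference of 0.19 and an adjusted p of 0.185.

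In this fit 2 of 10 members had an adjusted p under 0.05, where 3.77% of all genes tested had, and 0 of 10 also reached a 1.5-fold change, where 1.32% of all genes did. Hdac2, Eed and Suz12 were 3 of 10 that did not overlap between the replicate numbers, beside 6.1%, and 5 of 10 were lower in replicate 2 in all 4 treatments, beside 12.8%. These calls rest on few residual degrees of freedom. Without 1 library at a time Hdac2 lost its call in 7 of 8 cases, with adjusted p-values of 0.047 to 0.064, and Suz12 in 8 of 8, with 0.103 to 0.118; the log2 differences stayed at -0.39 to -0.38 and at -0.32 to -0.28.

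Other readouts moved with the replicate number. Jun RNA was at 1569 to 2071 TPM in replicate 1 and at 2159 to 3011 in replicate 2 without overlap, and endogenous Jun and the transgene cannot be told apart in these values. The summed level of the 10 mESC markers was 4624 to 5484 TPM in replicate 1 and 3566 to 4449 in replicate 2. The part of either in the split of Hdac2, Eed and Suz12 was not tested. Because the replicate numbers are spread evenly over the treatments, the split widens the intervals above and does not favour a compound.

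**Figure D3:**
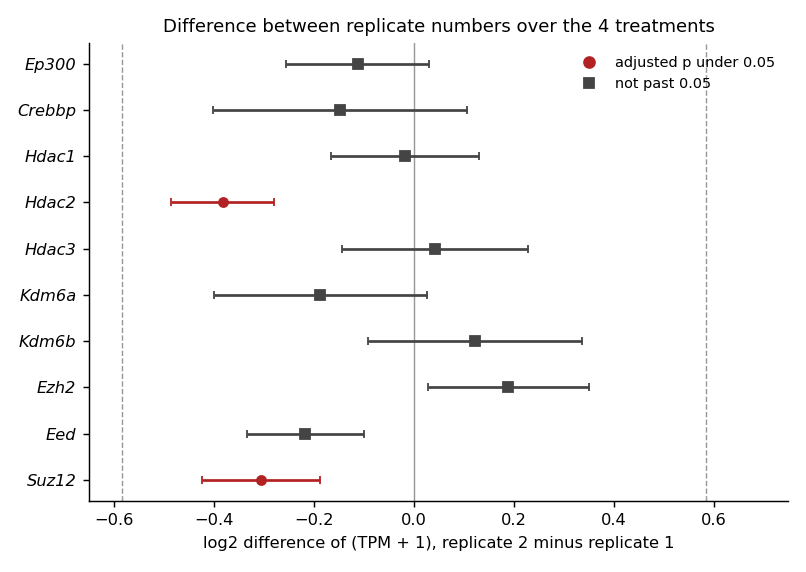
Log2 difference of replicate 2 from replicate 1 for each of the 10 genes, from a limma fit of treatment and replicate number on log2(TPM + 1); bars are 95% intervals and dashed lines mark a 1.5-fold change. Hdac2 at -0.38 and Suz12 at -0.31, in red, have an adjusted p under 0.05, and Ezh2 lies on the other side of 0 at 0.19.

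The ratio of RNAs differed between the replicate numbers for some pairs of related members. The ratio of Hdac1 to Hdac2 was 1.61 to 1.88 in replicate 1 and 2.04 to 2.28 in replicate 2. That of Ezh2 to Suz12 was 0.84 to 1.10 in replicate 1 and 1.29 to 1.57 in replicate 2, so the methyltransferase was near its scaffold in the first and above it in the second. Kdm6b to Kdm6a was 1.00 to 1.08 in replicate 1 and 1.18 to 1.47 in replicate 2. Hdac2 to Hdac3 was 2.47 to 2.73 in replicate 1 and 1.64 to 2.17 in replicate 2. The ranges of these ratios did not overlap. Those of Ep300 to Crebbp (2.92 to 3.53 and 3.00 to 3.39), Eed to Suz12 (0.98 to 1.19 and 1.03 to 1.28) and Ezh2 to Eed (0.85 to 1.07 and 1.07 to 1.44) did. Hdac2 and Suz12 had already split by replicate number, so ratios that hold them partly restate that split. The share among other pairs of genes was not computed. The Ezh2 to Ezh1 ratio, between the alternative methyltransferases of PRC2, was 5 to 10.4, so Ezh2 was the more abundant in every library. Ezh1 gave 12 and 15 TPM in the DMSO libraries and 21 and 22 in those given PFI-3. It gave 26 and 20 TPM under BI-9564 and 20 and 16 under P+B, and was not called against DMSO.

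The promoter windows of Hdac2 and Suz12, the 2 members past the adjusted p between replicate numbers, are shown because JUN, as part of AP-1, acts through short motifs. The 250 bases before the RefSeq start (GRCm38.p6) were searched on both strands for AP-1 (TGANTCA), CRE (TGACGTCA), the CCAAT box (CCAAT), SP1 (GGGCGG) and E2F (TTTNNCGC). The windows of Hdac2 and Suz12 follow, 5′ to 3′ on the plus strand, with matches in capitals.
Hdac2 (chr10:36974294-36974543): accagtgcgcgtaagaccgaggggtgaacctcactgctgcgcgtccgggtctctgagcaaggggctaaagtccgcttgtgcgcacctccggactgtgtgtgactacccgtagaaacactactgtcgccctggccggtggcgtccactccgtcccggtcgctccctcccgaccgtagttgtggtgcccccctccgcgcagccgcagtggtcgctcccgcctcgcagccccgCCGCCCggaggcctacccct
Suz12 (chr11:79992856-79993105): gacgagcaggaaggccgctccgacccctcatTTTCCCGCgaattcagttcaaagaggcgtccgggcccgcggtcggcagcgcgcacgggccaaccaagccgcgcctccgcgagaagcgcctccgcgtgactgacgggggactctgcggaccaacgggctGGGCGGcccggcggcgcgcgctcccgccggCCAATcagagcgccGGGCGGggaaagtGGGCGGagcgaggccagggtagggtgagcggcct
Hdac2 held 1 SP1 match. Suz12 held 3 SP1 matches, 1 CCAAT box and 1 E2F match. The window of Eed, which lies in annotated exons and is not printed, held 0 matches to any of the 5 motifs. An SP1 match was found in 32.7% of all 32851 windows, a CCAAT box in 33.8% and an E2F match in 4.28%. Of the 10 members 7 had a window (Hdac1, Hdac3 and Kdm6b had none), and 0 of 7 held an AP-1 or a CRE match, where 6.75% and 1.55% of all windows did. Annotated exons covered all 250 bases of the Ep300, Crebbp and Eed windows and 125 bases of that of Ezh2. These counts describe letters in a window and say nothing of binding.

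The partners of these enzymes were read from lists of complex subunits. The accessory PRC2 gene Aebp2, which encodes a DNA-binding subunit, fell with P+B. It gave 142 and 138 TPM in the DMSO libraries, 125 and 117 in those given PFI-3, 128 and 147 under BI-9564 and 77 and 81 under P+B. Both P+B libraries lay far below the other 6. It fell by 43.3% against DMSO (log2 difference -0.82, SE 0.10, adjusted p 0.00447), and it was also lower than with PFI-3 (-0.61, adjusted p 0.0279) and with BI-9564 (-0.79, adjusted p 0.0361). Both of these calls were lost without any 1 of the 8 libraries, with adjusted p-values of 0.0512 to 0.184 and of 0.119 to 0.319. The interaction had a log2 value of -0.58 with an adjusted p of 1. The call against DMSO was lost without DMSO replicate 1 (adjusted p 0.0563). Among the 8 other PRC2 genes tested of 9, a list that also holds Ezh1, Rbbp4 and Rbbp7, Aebp2 was the 1 called. The share over all genes tested was 4%. Of the 8, 3 were higher and 5 lower, and the median log2 difference was -0.10.

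Mta3, a subunit of the HDAC1/2-containing NuRD complex, also fell with P+B. It gave 142 and 123 TPM in the DMSO libraries, 130 and 114 in those given PFI-3, 71 and 80 under BI-9564 and 79 and 72 under P+B. The BI-9564 and P+B libraries overlapped each other and lay below all DMSO and PFI-3 libraries. It fell by 42.6% with P+B (log2 difference -0.80, SE 0.12, adjusted p 0.0103). With BI-9564 alone the log2 difference was likewise -0.80, with an adjusted p of 0.0520, and 0.0216 with the replicate block, under which it was called. The P+B call was lost without DMSO replicate 1 (adjusted p 0.0899), DMSO replicate 2 (0.0519), P+B replicate 1 (0.0601) or P+B replicate 2 (0.104). Mta3 was the 1 called of 23 subunits of HDAC complexes, a share near the 4% of all genes tested, and of the 23 12 were higher and 11 lower, with a median of 0.005. With the replicate block Sap18, a Sin3-associated subunit, was called too: it gave 19 and 18 TPM in the DMSO libraries, 7 and 5 in those given PFI-3, 11 and 8 under BI-9564 and 10 and 5 under P+B, and its log2 difference with P+B was -1.26 (adjusted p 0.0678, and 0.0187 with the block).

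Of the Polycomb complex PRC1, which binds the mark that PRC2 makes and ubiquitinates histone H2A, 17 of 19 genes were tested, and Phc2 was the 1 called with P+B, beside the same background of 4%. Phc2, a polyhomeotic subunit, gave 31 and 26 TPM in the DMSO libraries, 31 and 28 in those given PFI-3, 37 and 40 under BI-9564 and 50 and 44 under P+B. Both P+B libraries lay above the other 6. It rose by 63% (log2 difference 0.70, SE 0.14, adjusted p 0.0328), and the call was lost without any 1 of the 8 libraries, with adjusted p-values of 0.0619 to 0.152. In the list as a whole 11 were higher and 6 lower, and the median was 0.21 beside 0.06 over all genes.

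The summed level of 6 markers of endoderm and trophoblast was 3 and 4 TPM in the DMSO libraries, 6 and 6 in those given PFI-3, 7 and 8 under BI-9564 and 10 and 16 under P+B, beside 3566 to 5484 TPM for the mESC markers. Cdx2 (0 to 1 TPM in the DMSO libraries, 5 and 10 under P+B) and Gata4 (2 to 5 throughout) made up nearly all of it, and Foxa2 was at 0 in all libraries. Of the 10 mESC markers 4 were higher and 6 lower with P+B, and 1 was called, Tdgf1. It gave 163 and 156 TPM in the DMSO libraries and 82 and 84 under P+B (log2 difference -0.93, adjusted p 0.00916). Both BI-9564 libraries also lay below DMSO for Tdgf1, and both PFI-3 libraries lay above. With the replicate block 1 mESC marker was called higher and 1 lower with P+B. Jun RNA was at 1970 and 2877 TPM in the DMSO libraries, 1570 and 2227 in those given PFI-3, 2071 and 3011 under BI-9564 and 1569 and 2159 under P+B, so in both replicate numbers it was lower in the groups given PFI-3. The part of Jun RNA or of any of these markers in the values of Aebp2, Mta3 and Phc2 was not tested.

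The other enzymes of the same kinds gave no call against DMSO. With P+B 4% of all genes tested were called, so 0 calls in lists this short is near that share. Of 8 further acetyltransferases 0 were called with P+B (6 higher, 2 lower); Kat6a gave 40 and 38 TPM with DMSO and 48 and 48 with P+B (adjusted p 0.199), and Kat5 gave 36 and 28 against 41 and 38 (adjusted p 0.321). Of 10 further deacetylases 5 were tested and 0 called; Hdac6, a mostly cytoplasmic deacetylase, gave 73 and 68 TPM with DMSO and 57 and 50 with P+B (adjusted p 0.105). Of a list of 10 genes, subunits of the KDM6A-containing complexes together with Uty, 0 were called (5 higher, 5 lower). Rbbp5 gave 50 and 49 TPM with DMSO and 59 and 57 with P+B (adjusted p 0.243). Uty, the Y-linked relative of Kdm6a, gave 13 and 13 against 12 and 10 (adjusted p 0.582). With PFI-3 or BI-9564 alone no gene of these lists was called, where 0% and 0.108% of all genes tested were. With the replicate block the lists of this paragraph again gave no call against DMSO. The blocked P+B to PFI-3 comparison called 1 of the 8 acetyltransferases, lower with P+B, beside 3.43% of all genes tested.

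**Figure D4:**
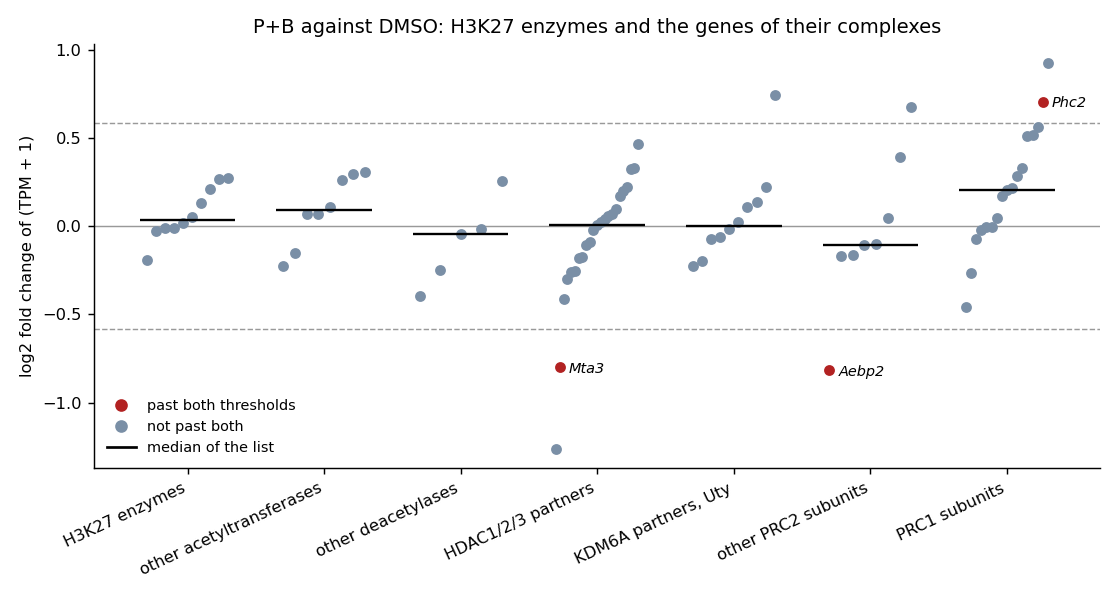
Log2 difference of P+B from DMSO for every tested gene of the 10 members and of 6 lists of related genes, with called genes in red and named, list medians as lines and dashed lines at a 1.5-fold change; unnamed points beyond them missed the adjusted p. Aebp2 and Mta3 lie near -0.8 and Phc2 at 0.70, while the 10 members lie between -0.19 and 0.27.

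**Figure D5:**
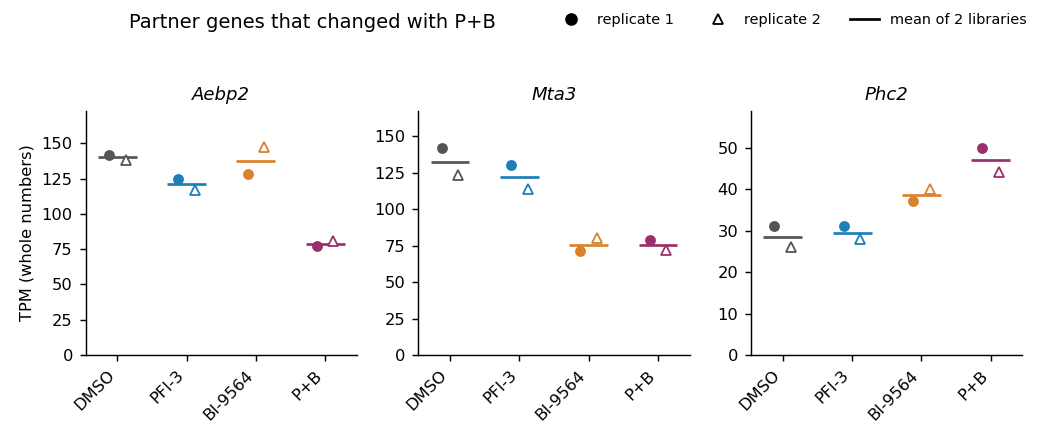
Level of Aebp2, Mta3 and Phc2 in each of the 8 libraries, in TPM, by treatment; filled circles are replicate 1, open triangles replicate 2 and lines the means of 2. Aebp2 is lowest under P+B at 77 and 81 TPM, and Mta3 is at 71 to 80 TPM with both BI-9564 and P+B.

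For Ezh2, the member with the widest P+B difference, the genes with the most similar pattern over the 8 libraries were Thap6 (Pearson r 0.961 of log2 values), Alkbh4 (0.959) and Gm6410 (0.959). These are descriptions over libraries that share treatments and replicate numbers. Alkbh4 gave 21 and 22 TPM in the DMSO libraries, 17 and 24 in those given PFI-3, 26 and 31 under BI-9564 and 28 and 31 under P+B, in the same order of groups as Ezh2. Thap6 was at 3 to 8 TPM and Gm6410 at 3 to 10, where a step of 1 TPM is a large part of the value.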

How the data were processed

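RNA-seq libraries were prepared from poly(A) RNA with a VAHTS mRNA-seq kit, of which the labels and the study's methods name different versions. The submitters' processing notes name bcl2fastq, Bowtie2 2.2.5, RSEM 1.3.0 and mm10; the annotation and strand setting are not given in the sources used here. The authors deposited TPM made whole numbers (a score per gene and library, not a count), summing to 991574 to 991897 per library; depth is unknown. Samples were grouped by titles.

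limma 3.58.1 (R 4.3.3, trend on the mean) was fitted to log2(value + 1), all 8 libraries in 1 fit without a block, and 10222 genes passed the filter (mean of 5 or more). P-values were Benjamini-Hochberg adjusted within each of 7 comparisons; a call needed an adjusted p under 0.05 and a 1.5-fold change or more. Fold changes on this scale understate those of low genes. The fit was tested on simulated data.

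Same-numbered libraries deviated together (correlations of 0.143 to 0.236 over the 6 pairs of groups), so the replicate numbers, taken from the labels, were treated as pairing the samples and a block was the alternative. The members and lists were chosen with earlier results of these data known. By rule, all members and the genes of the lists of related genes that were called against DMSO were named. Where such a list had none, its widest non-overlapping genes with P+B were named. Sap18 and the mESC marker Tdgf1 were named outside this rule, after their values were seen. Positions are from GENCODE M21 (GRCm38), promoters from RefSeq. Alternatives covered pseudocounts of 0.5 and 5, no filter or a mean of at least 20, quantile normalization, median centring, no trend, only the libraries compared, the block, and each library left out.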

Additional observations from a re-analysis of the deposited data

How the results depend on the processing

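The count of members called stayed at 0 under every alternative in all 7 comparisons, the replicate block included, while over all genes the block raised the calls from 409 to 718 with P+B, from 11 to 156 with BI-9564, from 134 to 351 for P+B against PFI-3, from 20 to 82 for P+B against BI-9564 and from 11 to 151 for BI-9564 against PFI-3. With P+B the calls over all genes were 201 without a filter, 0 with only the libraries compared, and 68 to 268 without 1 library; with BI-9564 they were 0 without a filter, without the trend or with only the libraries compared, 17 with a pseudocount of 5, 33 with a mean of at least 20 and 21 with median centring. The cause was not tested. Counting error cannot be had from TPM, and 2 libraries a group leave few degrees of freedom.

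Of 267 planned values of single members, 254 kept their direction and side of the threshold and 13 changed sign, all near 0. With quantile normalization these were Hdac1 0.082 and Eed 0.042 with P+B, Hdac1 0.023 and Kdm6b -0.029 with PFI-3, Crebbp -0.015 and Hdac1 0.023 with BI-9564. With median centring these were Ep300 -0.038 and Hdac2 -0.075 with P+B, Hdac2 -0.035 and Kdm6b -0.045 with PFI-3, Crebbp -0.010, Hdac2 -0.012 and Hdac3 -0.0036 with BI-9564. The cause was not tested.

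Of 240 values without 1 library, 33 changed sign. With P+B the ranges were -0.022 to 0.13 for Ep300, -0.032 to 0.29 for Crebbp, -0.14 to 0.12 for Hdac1, -0.17 to 0.21 for Hdac2, -0.14 to 0.079 for Kdm6b and -0.14 to 0.12 for Eed. With PFI-3 the ranges were -0.15 to 0.11 for Hdac1, -0.19 to 0.21 for Hdac2, -0.030 to 0.16 for Hdac3, -0.12 to 0.058 for Kdm6a, -0.077 to 0.081 for Kdm6b, -0.20 to 0.12 for Ezh2 and -0.23 to 0.039 for Eed. With BI-9564 the ranges were -0.069 to 0.14 for Crebbp, -0.17 to 0.092 for Hdac1, -0.16 to 0.23 for Hdac2, -0.051 to 0.14 for Hdac3, -0.24 to 0.023 for Eed and -0.057 to 0.31 for Suz12. For replicate 2 against replicate 1 they were -0.022 to 0.12 for Hdac3 and -0.058 to 0.062 for Hdac1. The count of members past the adjusted p in that comparison was 2, then 1 without a filter, 3 with a mean of at least 20 and 0 to 1 without 1 library.

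Only the libraries compared, chosen for Aebp2, Mta3 and Phc2 after the data were seen, gave adjusted p-values of 0.100, 0.112 and 0.162 for P+B; Phc2 had 0.0677 without a filter.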

Other observations

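Pagr1a, a subunit of the KDM6A-containing complexes, had 70 TPM in PFI-3 replicate 2 and 1 to 13 in the other 7 libraries.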
